A study of Mus musculus with 6 samples.

Results

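The genes described here are 10 of the 32285 counted in mouse testis: the pore subunits Catsper1, Catsper2, Catsper3 and Catsper4, the auxiliary subunits Catsperb, Catsperd, Catsperg1 and Catsperz, the potassium channel gene Kcnu1 and the proton channel gene Hvcn1. They were taken by name as sperm ion channel genes. Single-cell RNA-sequencing libraries had been made from testes of wild-type C57BL/6 mice (C57BL/6N in the methods of the study) aged 8 weeks fed for 2 weeks with food either rich in fat (HFD, high-fat diet) or poor in it (LFD). There were 3 libraries per diet, and the study's methods give 3 mice per diet. The count files are named for the opposite diet in all 6 cases, and the study's own list of barcodes per library follows those names. The groups carry their labels here, as libraries labelled HFD or labelled LFD. If the file names are right, every difference between diets changes sign.

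CatSper is the calcium channel of the sperm tail. Its pore is built from the products of Catsper1 to Catsper4, around which sit large single-pass membrane proteins (beta, gamma, delta and epsilon) and small cytoplasmic proteins (zeta and EFCAB9), and it opens as the cytoplasm becomes alkaline, which drives the hyperactivated tail beat needed to reach and enter the egg. Kcnu1 encodes SLO3, the sperm potassium channel that hyperpolarizes the cell during capacitation. Hvcn1 encodes HV1, a voltage-gated proton channel that lets protons leave the cell. The CatSper proteins and SLO3 work in mature sperm, whereas their RNAs have to be made in the testis before the nucleus of the spermatid condenses and falls silent.

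Each barcode (the label shared by all reads of 1 droplet, taken as 1 cell) was placed on 1 of 9 stages of sperm formation by unique molecular identifiers (UMIs, tags of single captured RNA molecules) of marker genes, none of which is described here. Of 48939 barcodes, 21272 had at least 3000 UMIs and 17972 were placed on a stage, holding 81.9% of the 429495465 UMIs. The stages, in order, were spermatogonia-like (959 barcodes), early prophase-like (1278), pachytene-like (3176), late spermatocyte-like (1751), early round spermatid-like (878), later round spermatid-like (3595), starting elongation-like (1629), elongating-like (2354) and condensing-like (2352). The names are used below without the ending. Genes that took no part in the staging followed the stages. Hspa2, a chaperone of meiotic cells, was highest in pachytene (1619 CPM), where CPM (counts per 1000000) relates the UMIs of a gene to all UMIs of a stage and library. Izumo1, the sperm protein that binds the egg, was highest at the start of elongation (181 CPM), and the tail genes Akap4 (1715 CPM) and Odf1 (841 CPM) were highest in condensing spermatids.

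Totals ranged from 39196921 to 95845514 UMIs per library, and pairs of libraries shared 12 to 28 barcode sequences. Depth per barcode differed between libraries within a stage, in pachytene from a median of 4152.5 UMIs (LFD replicate 2) to 36899.5 (LFD replicate 1). In later round spermatids the median was 5295 UMIs in HFD replicate 2 and 30440.5 to 36471.5 in the others. HFD replicate 2 also stood apart in the last stages. Its elongating barcodes held 15239 CPM of Tnp2, a transition protein that packs the spermatid genome, against 44447 to 59057 CPM in the other 5 libraries. Levels of the pore subunits in these stages are given with and without it where they are named. Haemoglobin RNA was at 0 to 0.0209 CPM in replicate 1 of either diet and at 30.5 to 99.7 CPM in the other 4 libraries, and with replicate 1 against the other libraries as a batch term in the diet comparison edgeR still called 0 genes, in the whole testis (1285 at an unadjusted p under 0.05, smallest adjusted p = 0.113) or in any stage. RNA of germ cells was also found in barcodes of other cells. Macrophage-like barcodes (182) held 4357 CPM of Ldhc, the lactate dehydrogenase of sperm, against 8907 CPM in late spermatocytes. Levels of the channel genes in macrophage-like barcodes are therefore given as the background of each, and a level at or below it is not read as expression. This background is compared in CPM. Macrophage-like barcodes were shallow (median 3831.5 UMIs), so it is not matched in depth to the stages.

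Reference promoters from RefSeq (GRCm38.p6, 250 bases before to 50 after the start) were found for 7 of the 10 genes, with 2 start sites each for Catsperd and Catsperg1. The following 6 belong to members of the earlier and the later group described below and to Catsperd, which rose in both periods. Capitals mark matches, on either strand, to 4 short motifs: AACNGNC, the core bound by MYB factors such as the meiotic regulator MYBL1, TGACG, a part of the site of CREM and its relatives, GTTGCC, a part of the X-box bound by RFX factors, and ACAATG, a core bound by SOX factors.
Catsperb, chr12:101404423-101404722, plus strand: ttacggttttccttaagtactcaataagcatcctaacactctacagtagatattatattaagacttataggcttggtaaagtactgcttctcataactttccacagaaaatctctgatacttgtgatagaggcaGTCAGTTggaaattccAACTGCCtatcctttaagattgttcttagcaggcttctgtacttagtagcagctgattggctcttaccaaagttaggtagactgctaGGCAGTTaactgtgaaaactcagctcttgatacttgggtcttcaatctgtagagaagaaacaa
Catsper2, chr2:121413743-121414042, minus strand: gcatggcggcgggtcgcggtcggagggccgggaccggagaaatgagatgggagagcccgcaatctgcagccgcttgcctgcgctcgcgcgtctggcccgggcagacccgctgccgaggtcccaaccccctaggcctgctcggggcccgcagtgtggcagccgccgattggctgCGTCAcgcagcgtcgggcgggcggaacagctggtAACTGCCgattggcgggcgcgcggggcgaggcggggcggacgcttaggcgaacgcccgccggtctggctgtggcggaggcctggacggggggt
Catsper3, chr13:55784329-55784628, plus strand: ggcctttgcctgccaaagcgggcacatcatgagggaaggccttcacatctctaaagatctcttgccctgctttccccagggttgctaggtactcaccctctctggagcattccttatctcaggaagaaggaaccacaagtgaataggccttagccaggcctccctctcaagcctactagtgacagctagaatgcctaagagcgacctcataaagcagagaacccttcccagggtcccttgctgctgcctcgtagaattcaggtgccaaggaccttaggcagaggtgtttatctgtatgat
Catsper4, chr4:134227334-134227633, minus strand: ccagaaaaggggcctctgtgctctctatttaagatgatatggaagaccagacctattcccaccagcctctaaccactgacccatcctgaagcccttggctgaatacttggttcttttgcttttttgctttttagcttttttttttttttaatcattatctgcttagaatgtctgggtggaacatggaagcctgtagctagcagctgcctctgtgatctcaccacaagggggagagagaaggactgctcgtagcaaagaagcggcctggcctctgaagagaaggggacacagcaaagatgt
Catsperd, upstream start, chr17:56626797-56627096, plus strand: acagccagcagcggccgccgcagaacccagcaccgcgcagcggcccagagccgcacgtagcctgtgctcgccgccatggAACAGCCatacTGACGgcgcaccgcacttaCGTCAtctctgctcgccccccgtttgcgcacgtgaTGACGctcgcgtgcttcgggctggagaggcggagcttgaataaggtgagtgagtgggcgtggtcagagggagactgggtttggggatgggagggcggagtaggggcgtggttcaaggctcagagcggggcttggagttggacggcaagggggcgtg
Catsperd, downstream start, chr17:56627893-56628192, plus strand: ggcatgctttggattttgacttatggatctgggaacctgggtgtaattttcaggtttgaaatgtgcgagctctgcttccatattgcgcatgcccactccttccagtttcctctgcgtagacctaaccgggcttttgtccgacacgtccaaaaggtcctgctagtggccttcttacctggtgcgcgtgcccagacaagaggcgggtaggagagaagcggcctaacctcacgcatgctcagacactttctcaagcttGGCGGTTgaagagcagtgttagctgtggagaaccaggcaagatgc
The MYB core matched at 3 places in Catsperb, of which the nearest to the start began at position -13, once in Catsper2 (at -43) and once at each Catsperd start. The CREM partial site matched 3 times at the upstream start of Catsperd and once in Catsper2. None of the 4 motifs matched in the windows of Catsper3, Catsper4, Catsperg1 or Catsperz. Among 32851 promoters of this length, 32.8% held the MYB core, 20.8% the CREM partial site, 12.5% the X-box partial site and 12.6% the SOX core, so that single matches are common. The matches do not overlap one another, and they are a description of these letters only. GC content ranged from 38.0% (Catsperb) to 74.7% (Catsper2).

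The pore subunits did not appear together: Catsper2 was highest in late spermatocytes, whereas Catsper1, Catsper3 and Catsper4 were highest in later round spermatids. With levels divided by TMM factors, which correct for a few very abundant RNAs, Catsper4 was highest at the start of elongation in 6 of 6 libraries, and with stages taken from clusters in 5 of 6. Catsper2 (chr2:121392631-121413792, minus strand) was at 317, 375 and 415 CPM in late spermatocytes (lowest, median and highest of 6 libraries), from 14091 UMIs. By later round spermatids its level was 202 ± 18.0 CPM (SD, n = 6), with a range of 180 to 230. No library of the later stage reached the lowest of the earlier one. In the same 2 stages Catsper3 (chr13:55784568-55808998, plus strand) went the other way, from 8.17, 15.8 and 19.7 CPM to 179, 216 and 231 CPM.

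Catsper4 (chr4:134211970-134227383, minus strand) was at 19.2, 28.3 and 38.2 CPM in late spermatocytes, at 73.7, 88.5 and 102 CPM in early round spermatids and at 155, 204 and 243 CPM in later round spermatids, with no overlap between these stages. Catsper1 (chr19:5335741-5344280, plus strand), the subunit with the long histidine-rich amino terminus, was at 6.91, 10.6 and 13.7 CPM, then at 36.9, 38.6 and 42.3 CPM, then at 63.1, 65.4 and 74.9 CPM. In late spermatocytes Catsper2 was thus at its highest level while Catsper1 had 15.7%, Catsper3 6.87% and Catsper4 14.1% of theirs. The background in macrophage-like barcodes was 21.1 ± 9.75 CPM for Catsper1, 18.8 ± 16.5 for Catsper3 and 42.1 ± 25.4 for Catsper4 (SD, n = 6). Every mean CPM of these 3 genes before the round spermatids lay below it. In UMIs per barcode, however, their late spermatocytes lay above macrophage-like barcodes. Sertoli-like barcodes held more of Catsper3, 53.8 ± 45.1 CPM with a range of 0 to 120. For Catsper2 the background was 140 ± 79.8 CPM, above its means in spermatogonia (48.0 CPM) and early prophase (79.6 CPM).

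All 4 pore RNAs were low again in elongating spermatids. Catsper3 was at 105 ± 13.1 CPM at the start of elongation and at 22.6 ± 22.3 CPM in elongating spermatids, or 13.7 ± 5.68 CPM without HFD replicate 2, which alone had 67.0 CPM. Catsper1 was at 45.0 ± 4.53 and then at 10.6 ± 8.09 CPM (7.41 ± 2.37 without that library).

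**Figure D1:**
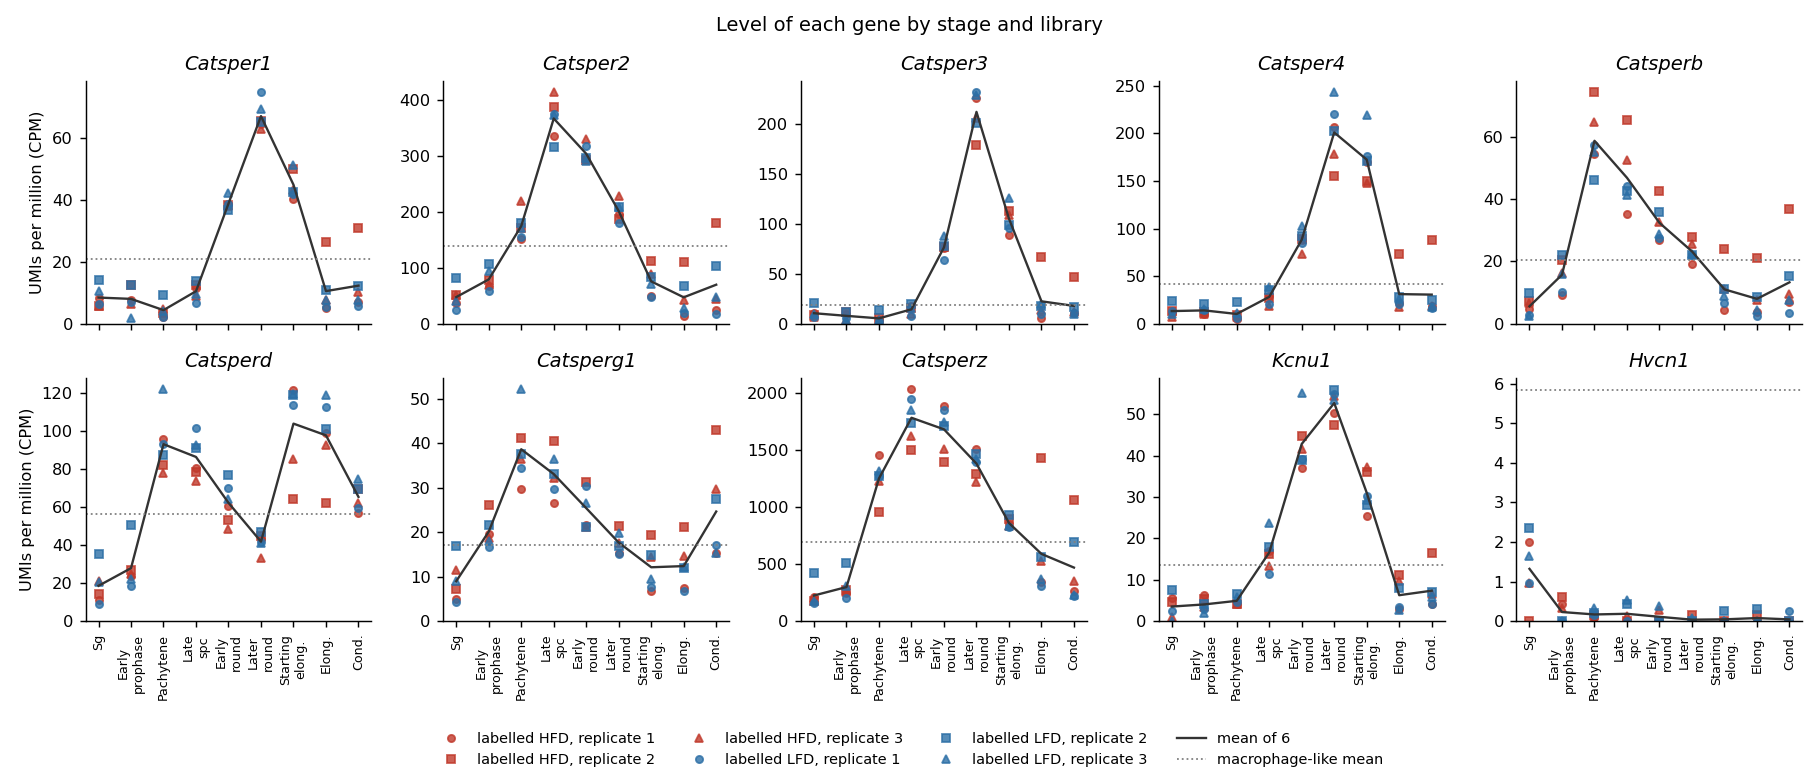
Level of each of the 10 genes in CPM (vertical axes, each from 0) over the 9 stages (horizontal axes; Sg, spermatogonia; spc, spermatocytes; Elong., elongating; Cond., condensing). Points are libraries, red for labelled HFD and blue for labelled LFD, with replicate 1 as circles, 2 as squares and 3 as triangles; the line is the mean of 6 and the dotted line the mean of macrophage-like barcodes. Catsper1, Catsper3, Catsper4 and Kcnu1 peak at later round spermatids, Catsperd has a second peak, and HFD replicate 2 lies above the other libraries for most genes in the last stages.

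Of the auxiliary subunits, Catsperb and Catsperg1 were highest in pachytene, and Catsperz reached 70.2% of its highest level there. With TMM-scaled levels Catsperg1 was instead highest in condensing spermatids, in 5 of 6 libraries. Catsperb (chr12:101404653-101626009, plus strand), the beta subunit, was at 9.37, 16.2 and 22.1 CPM in early prophase and at 46.1, 56.3 and 74.2 CPM in pachytene, and its libraries did not overlap. From there its mean was lower at each stage up to the elongating one, at 46.8, 32.4, 23.2, 11.1 and 8.02 CPM (5.38 without HFD replicate 2), the last 2 below its background of 20.6 CPM. Catsperg1 (chr7:29181321-29214035, minus strand), the gamma subunit, was at 29.8, 37.2 and 52.3 CPM in pachytene against 16.7, 19.1 and 26.2 CPM in early prophase, again without overlap. Its mean was at 1.17 times its background in early prophase and at 2.25 times in pachytene. Reads shared with its close relative Catsperg2 are not counted by the aligner, so that its level may be too low.

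Catsperz (chr19:6922371-6925380, minus strand), the zeta subunit, had the most UMIs of the list, 514302 of its own among all barcodes, a count that is not divided by transcript length. It was at 200, 264 and 511 CPM in early prophase, at 955, 1273 and 1457 CPM in pachytene and at 1501, 1795 and 2036 CPM in late spermatocytes. Its level was 1381 ± 109 CPM in later round spermatids and 824 to 931 CPM at the start of elongation. It overlaps the annotated span of Kcnk4 on the same strand, so that a part of its UMIs could be read through from there. Its background was 696 ± 282 CPM, which is above its mean levels in spermatogonia, early prophase, elongating and condensing spermatids.

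Catsperd (chr17:56628143-56664456, plus strand), the delta subunit, was high both before and after the round spermatids. It was at 77.8, 90.2 and 122 CPM in pachytene, at 33.3, 42.4 and 46.7 CPM in later round spermatids, and at 64.3, 116 and 122 CPM at the start of elongation. In every library the level in later round spermatids lay below the levels on both sides. The start of elongation was its highest stage in 3 of 6 libraries. With TMM-scaled levels it was highest in elongating spermatids, in 5 of 6. The second rise was smallest in HFD replicate 2 (44.7 to 64.3 CPM) and in HFD replicate 3 (33.3 to 85.1 CPM), and in the other 4 libraries the later level was 114 to 122 CPM. In CPM the dip is also below its background in macrophage-like barcodes (56.4 ± 21.2 CPM). In UMIs per barcode it lies above, at 1.28 in later round spermatids against 0.341. Counts near the 3′ end do not tell its 2 start sites apart.

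Kcnu1 (chr8:25849623-25937939, plus strand) was highest in the same stage as the later pore subunits. It was at 11.3, 16.6 and 23.7 CPM in late spermatocytes, which is 31.5% of its highest mean, at 37.1, 40.4 and 55.2 CPM in early round spermatids and at 47.3, 53.9 and 55.9 CPM in later round spermatids. Its background was 13.5 ± 17.5 CPM. Hvcn1 (chr5:122206804-122242297, plus strand) was close to absent. It had 66 UMIs in all 48939 barcodes, of which 17 lay in spermatogonia (1.49 CPM, exact Poisson interval at 95% of 0.869 to 2.39, counting error only) and 4 in macrophage-like barcodes (3.80 CPM, 1.04 to 9.73). The 8 stages from early prophase on held 31 UMIs of 340425089, or 0.0911 CPM (0.0619 to 0.129). It passed no filter for low counts, and no test or order is given for it.

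To ask between which stages each gene changed, neighbouring stages were compared over the 6 libraries with the library as a block (edgeR's quasi-likelihood test with TMM scaling, Benjamini-Hochberg adjustment over all genes). Most genes change at most steps, so counts of the 10 genes are read against that share. From spermatogonia to early prophase 5 of the 8 tested genes rose, against 38.9% of all genes, and 0 fell (33.4%). From early prophase to pachytene 5 of 9 rose (41.8% of all genes) and 1 fell (39.5%). The 5 were the same at both steps: Catsper2, Catsperb, Catsperd, Catsperg1 and Catsperz. In early prophase the means of Catsper2, Catsperb, Catsperd and Catsperz still lay below their background, so the first of these rises is not read as the start of their expression. Catsper1 was the one that fell, by 0.71 ± 0.28 (adjusted p = 0.033), from levels below its background, and this call was lost with DESeq2, with no library block, and without HFD replicate 1, HFD replicate 2 or LFD replicate 1. The largest change was that of Catsperz into pachytene, by 2.47 ± 0.17 on the log2 scale (SE, adjusted p = 7.08e-08). Catsperb rose by 2.27 ± 0.18 there (adjusted p = 2.57e-07).

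From pachytene to late spermatocytes 6 of 9 rose (37.8% of all genes), now with Catsper1, Catsper3, Catsper4 and Kcnu1 among them, and Catsperb fell (39.3%). Catsper1, Catsper3 and Catsper4 lay below their background in CPM in both stages, so these rises are not read as onset either. That reading rests on the scaling. In UMIs per barcode their late spermatocytes lay above macrophage-like barcodes, at 0.230 against 0.132, 0.312 against 0.154 and 0.597 against 0.247. Catsper2 rose by a further 1.18 ± 0.06 (adjusted p = 9.69e-08). From late spermatocytes to early round spermatids the listed genes went in both directions, in shares near those of all genes. Catsper1, Catsper3, Catsper4 and Kcnu1 rose (4 of 9, against 33.2%), Catsper3 most, by 2.46 ± 0.11 (adjusted p = 7.34e-11), and Catsper2, Catsperb, Catsperd and Catsperg1 fell (4 of 9, against 37.1%), by 0.23 to 0.49. The same 4 rose and the same 4 fell from early to later round spermatids (35.4% and 31.2% of all genes). Catsperz changed by -0.04 ± 0.02 and -0.05 ± 0.03 at these steps and passed neither test.

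From later round spermatids to the start of elongation 2 of 9 rose (32.9%) and 5 fell (37.1%). Catsperd rose by 1.76 ± 0.16 (adjusted p = 2.67e-06). Catsper4 was the other, at 0.25 ± 0.06 (adjusted p = 0.00407), but it fell by 0.22 when libraries were scaled by their total UMIs alone (adjusted p = 0.00653), so that its direction rests on the scaling. That scaling moved the median change of all genes from -0.10 to -0.58 at this step, and under it Catsperd still rose, by 1.29, while the other 8 fell. From the start of elongation to elongating spermatids 0 rose (25.2%) and 5 fell (29.1%). Catsper3 fell by 2.23 ± 0.30 (adjusted p = 4.41e-05), Catsper4 by 2.22 ± 0.23, Kcnu1 by 2.02 ± 0.23, Catsper1 by 1.88 ± 0.24 and Catsper2 by 0.55 ± 0.20 (adjusted p = 0.0337). The call of Catsper2 was lost with DESeq2, with its size factors and with no library block. It was also lost without HFD replicate 1, HFD replicate 3, LFD replicate 1 or LFD replicate 3. The mean CPM of Catsper2 lay below its background in both stages. Its UMIs per barcode were 1.58 at the start of elongation and 0.853 in elongating spermatids, against 0.951 in macrophage-like barcodes. Without HFD replicate 2, 6 of the 9 fell, Catsper3 by 2.64, and 2 rose, Catsperg1 and Catsperd. In the last step 3 rose (16.5%) and 1, Catsperd, fell (17.7%). Those 3 were Catsper2, Catsperb and Catsperg1, and they also rose without HFD replicate 2. The means of Catsper2 and Catsperb lay below their background in both stages, so their rises are not read as expression. Catsperg1 was at 0.72 times its background in elongating and 1.43 times in condensing spermatids. The rise of Catsperg1, by 1.05 ± 0.19 (adjusted p = 0.000393), was called under every alternative run, and without HFD replicate 1 it was the one call of the 4 that was left.

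**Figure D2:**
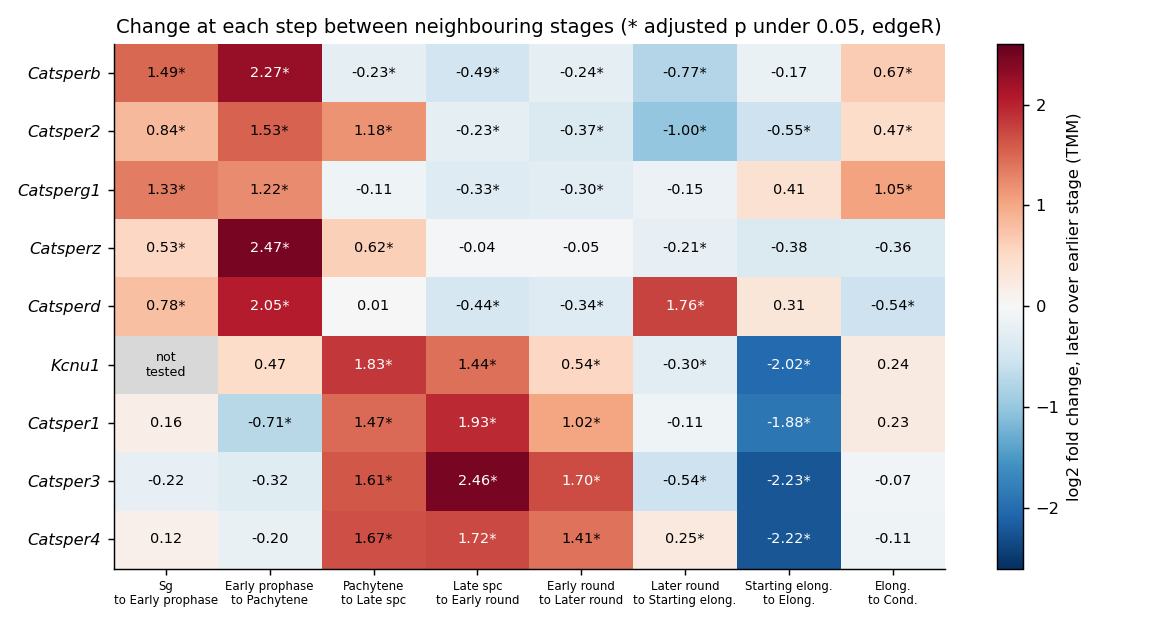
Change of 9 genes (rows, in order of position) at each of 8 steps between neighbouring stages (columns; Sg, spermatogonia; spc, spermatocytes; elong., elongating; cond., condensing), as the log2 fold change of the later over the earlier stage with TMM scaling, 6 libraries as blocks. Red is higher and blue lower in the later stage, and an asterisk marks an adjusted p under 0.05. The upper 5 rows are red with asterisks in the first 2 steps, at levels partly below background, the lower 4 in the 3 steps from pachytene to later round spermatids, and Catsperd has a second one at the start of elongation (1.76).

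The order of the genes was summed up by a position, the mean stage number (1 to 9) weighted by the CPM of the gene in each stage, computed in each library. Catsperb came first (4.42 ± 0.28, SD, n = 6), followed by Catsper2 (4.71 ± 0.25), Catsperg1 (4.82 ± 0.27), Catsperz (5.07 ± 0.34), Catsperd (5.63 ± 0.12), Kcnu1 (5.65 ± 0.19), Catsper1 (5.77 ± 0.23), Catsper3 (5.99 ± 0.21) and Catsper4 (6.05 ± 0.22). Catsperb, Catsper2, Catsperg1 and Catsperz all preceded Kcnu1, Catsper1, Catsper3 and Catsper4 in 6 of 6 libraries. These groups follow the mean positions in the same libraries, with Catsperd in the middle left out. The count is therefore a description and not a test. The gap between the groups was smallest in HFD replicate 2 (0.116 stages) and at most 0.787. Dividing the levels by TMM factors moved every position later and put Catsperd (6.41) after Catsper4 (6.39), with Catsperg1 (5.67) still before Kcnu1 (6.01). Positions also weigh stages below background. With the CPM of macrophage-like barcodes subtracted, Catsperb was at 3.87 ± 0.46 and Catsperd at 5.74 ± 1.32 (3.37 to 7.47 over libraries).

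Neighbours in this order were compared by exact two-sided sign-flip tests over the 6 libraries, where the smallest possible p is 0.03125. Catsper2 followed Catsperb, Catsperz followed Catsperg1 and Catsper3 followed Catsper1 in 6 of 6 libraries, with differences of 0.285 ± 0.0390, 0.252 ± 0.160 and 0.218 ± 0.0385 stages (SD, exact p = 0.03125 each, 0.0833 adjusted over 8 pairs). None of the 8 pairs passed after adjustment. The order of 2 of these 3 pairs rests on the processing. Catsperz minus Catsperg1 was -0.0815 stages with TMM-scaled levels (3 of 6 libraries). Catsper3 minus Catsper1 was -0.0297 with the CPM of macrophage-like barcodes subtracted, but 0.0626 with TMM-scaled levels (6 of 6 libraries). Kcnu1 and Catsperd differed by 0.0201 ± 0.238 stages (exact p = 0.875), and the position of Catsperd, an average over early and late stages, lies near the later round spermatids, where its level dipped.

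**Figure D3:**
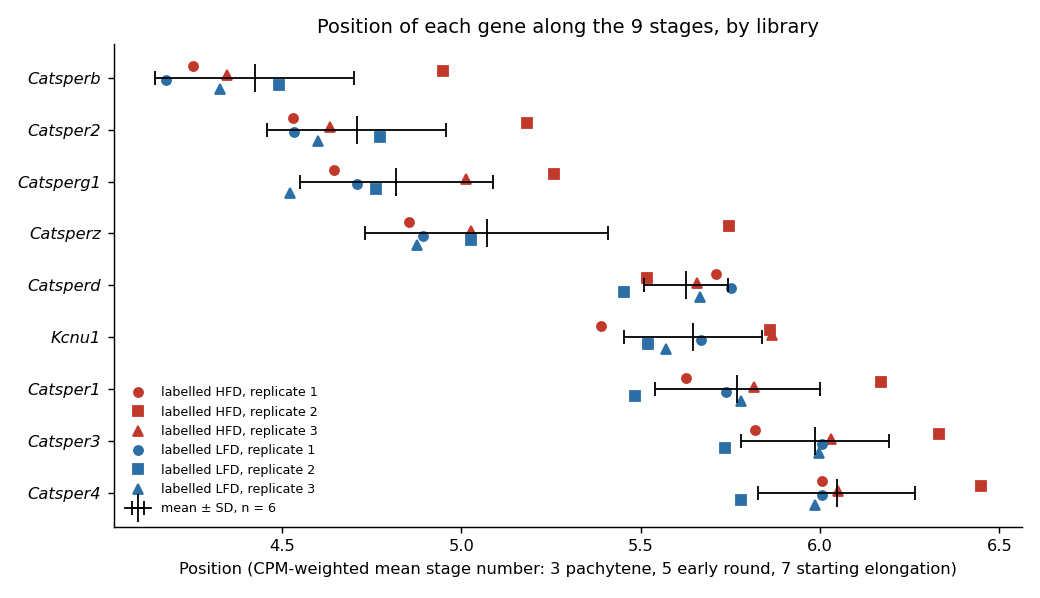
Position of 9 genes along the stages (horizontal axis, CPM-weighted mean stage number) in each of 6 libraries (red, labelled HFD; blue, labelled LFD; circle, square and triangle for replicates 1, 2 and 3), with mean ± SD in black. Rows are in order of mean position over these libraries. The 4 upper genes lie left of the 4 lower ones in every library, and HFD replicate 2 lies to the right for most genes.

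Seen per barcode, with each thinned to 3000 UMIs, a Catsper3 UMI was found in 43.8 ± 6.73% (SD, n = 6) of later round spermatids and in 3.18% of macrophage-like barcodes. Catsper2 was found in 58.5% of late spermatocytes against 24.2% of macrophage-like barcodes. Kcnu1 was found in 13.6% of later round spermatids against 3.78%. Catsperz was found in 98.1% of late spermatocytes but also in 74.0% of macrophage-like barcodes, so that its presence in a barcode says little. Before thinning the shares were 85.6% for Catsper3, 82.0% for Catsper2 and 67.2% for Kcnu1, as the median later round spermatid had 31318 UMIs and the median late spermatocyte 7305.

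Genes of further proteins of the channel complex, which had been listed beside the 10, also differed in the stage of their highest level. Of 9 such genes, Catspere1 (44.8 CPM), Catspere2 (60.4 CPM) and Catsperg2 (58.7 CPM) were highest in pachytene, and Slco6c1 (322 CPM) and Trim69 (300 CPM) in late spermatocytes. Catspere1 is annotated as a pseudogene, and reads it shares with Catspere2 are not counted. Efcab9 (552 CPM), the calcium-binding partner of the zeta subunit, Tmem262 (211 CPM) and Tmem249 (149 CPM) were highest in later round spermatids. C2cd6 was nearly level from late spermatocytes to later round spermatids, at 318, 342 and 348 CPM. The partners Catsperz and Efcab9 thus had positions of 5.07 ± 0.34 and 5.98 ± 0.21. Lrrc52, which encodes the auxiliary subunit of SLO3, was at 13.2 CPM in early round and 79.2 CPM in later round spermatids, where Kcnu1 had 81.2% and 100% of its highest level. At the step from early to later round spermatids Lrrc52 rose by 2.81 ± 0.16 and Kcnu1 by 0.54 ± 0.09 on the log2 scale (edgeR, adjusted p = 4.88e-08 and 0.000215).

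At the step from late spermatocytes to early round spermatids, 4 of these 9 complex genes rose and 3 fell, beside 33.2% and 37.1% of all genes. Of the full list of 28 other genes of sperm ion transport and its control, 21 were tested at this step, of which 9 rose and 8 fell. Among them Slc9c1, the sperm sodium-proton exchanger, was highest in late spermatocytes (118 CPM), Adcy10, the soluble adenylyl cyclase, in later round spermatids (113 CPM), and Atp1a4, the sodium pump of the sperm tail, at the start of elongation (130 CPM).

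**Figure D4:**
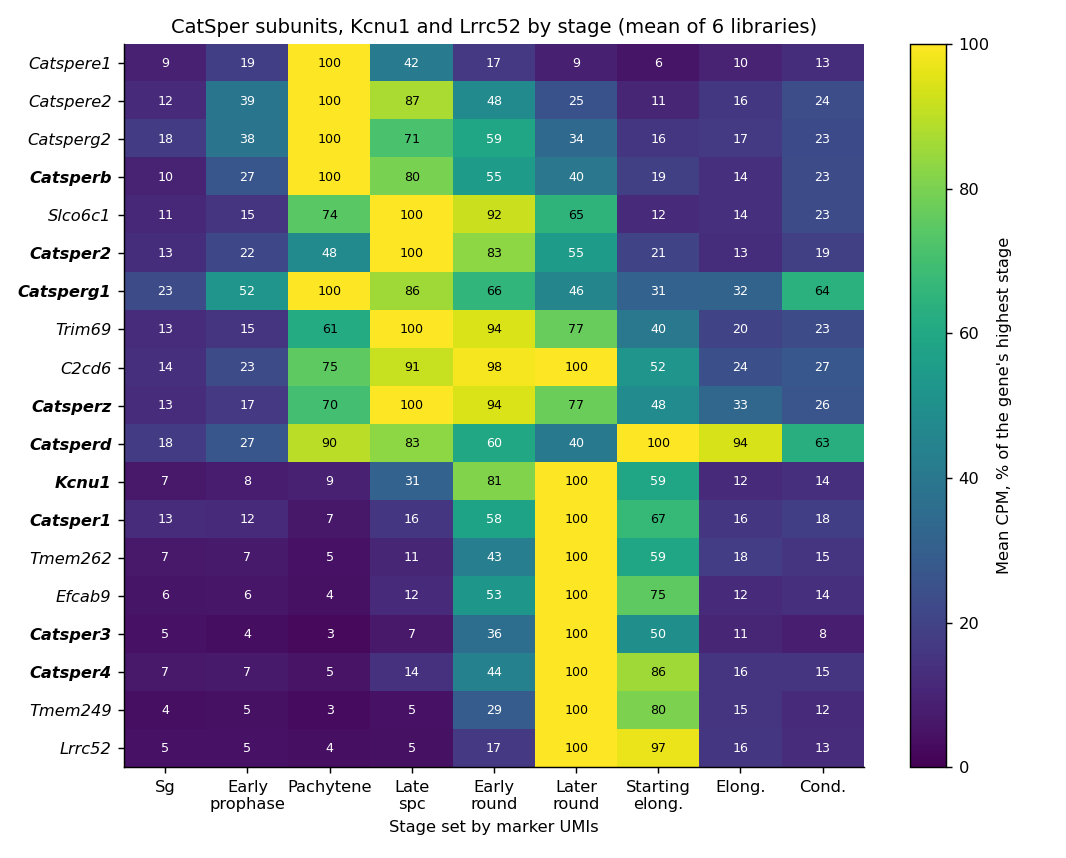
Mean CPM of 6 libraries in each stage (columns; Sg, spermatogonia; spc, spermatocytes; elong., elongating; Cond., condensing) as a percent of the highest stage of each gene (colour and numbers), for 9 genes of the list (bold), 9 further genes of the CatSper complex and Lrrc52, ordered by position from top to bottom. The upper rows are brightest in pachytene and late spermatocytes, the lower rows in later round spermatids, and Catsperd at both ends (90% in pachytene, 40% in later round spermatids, 100% at the start of elongation).

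The genes most like each member were found by Pearson's r of log2(CPM + 1) over the 54 sums of 9 stages and 6 libraries, among 13823 genes with at least 500 UMIs and no role in the staging. These sums share libraries and depth, so r is a description only. Catsper1 was most like Catsper3 (r = 0.979), and Catsper4 most like Spata46 (0.992) and Tsga8 (0.986). Catsper2 was most like Gkap1 (0.981), Catsperz like Prdx6b (0.989), Catsperb like 1700026D11Rik (0.971), Kcnu1 like Ppp1r32 (0.957), Catsper3 like 1700061G19Rik (0.983), Catsperd like Ttc23 (0.911) and Catsperg1 like Nol4l (0.902). Within the list, r was 0.95 to 0.98 among Catsper1, Catsper3 and Catsper4, and 0.32 to 0.36 between these and Catsper2.

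The diet comparison asked whether 2 weeks of the diets moved these RNAs. No gene of any kind was called between the libraries labelled HFD and LFD (edgeR, 0 of 20727 in the whole testis, 0% called, and 0% in each of the 9 stages, with 8385 to 14898 genes tested), and DESeq2 called 0 as well. Unadjusted, 471 genes in the whole testis and 41 to 478 per stage had a p under 0.05. Among the 9 genes of the list tested, the whole-testis changes ran from -0.34 ± 0.19 (Catsper4) to 0.29 ± 0.19 (Catsperb) on the log2 scale (adjusted p at least 0.986). Over the 88 tests of a listed gene in the whole testis or a stage, 3 had an unadjusted p under 0.05, the smallest 0.0225 (adjusted 0.903). In bulk sums fewer cells of a stage and less RNA per cell cannot be told apart.

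Catsper4 was at 89.0, 83.8 and 74.2 CPM in the 3 libraries labelled HFD and at 103, 83.3 and 141 CPM in those labelled LFD, whose ranges overlap. Catsperd was at 71.9, 60.8 and 61.7 CPM against 72.0, 77.8 and 72.1 CPM, the one listed gene of 9 whose diets did not overlap in the whole testis, where 6.68% of all genes did not. By stage, it did not overlap in late spermatocytes (7.03% of all genes), early round (9.24%) and elongating spermatids (4.65%). It was lower in the libraries labelled HFD each time, by 0.28 to 0.61 on the log2 scale with TMM scaling. The overlap was judged in CPM. The largest change was in elongating spermatids, where HFD replicate 2 stood apart and mean CPM was 84.5 (labelled HFD) and 111 (labelled LFD). Catsper4 did not overlap in early prophase (10.6%) and at the start of elongation (4.05%), and Kcnu1 in pachytene (8.09%). Catsper4 in early prophase (14.1 CPM, background 42.1) and Kcnu1 in pachytene (0.36 times its background) lay below background. Their separation there is not read as a difference in expression. In spermatogonia (6.35%), later round (6.87%) and condensing spermatids (2.17%) each gene overlapped. A single gene of 8 or 9 is the smallest count above 0 that could be seen against these shares.

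The positions of the 9 genes were 0.00 to 0.31 stages later in the libraries labelled HFD, with an exact permutation p of 0.1 to 1 (0.1 is the smallest that 3 against 3 libraries allow) and adjusted values of 0.72 or more. Without HFD replicate 2 the differences were -0.0539 to 0.164 stages, and 2 of the 9 turned sign, Catsper2 and Catsperb. At its highest stage Catsper3 was at 226, 179 and 206 CPM in the libraries labelled HFD and at 231, 201 and 229 CPM in those labelled LFD. No difference between the diets in the level or the position of these genes passed its test.

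**Figure D5:**
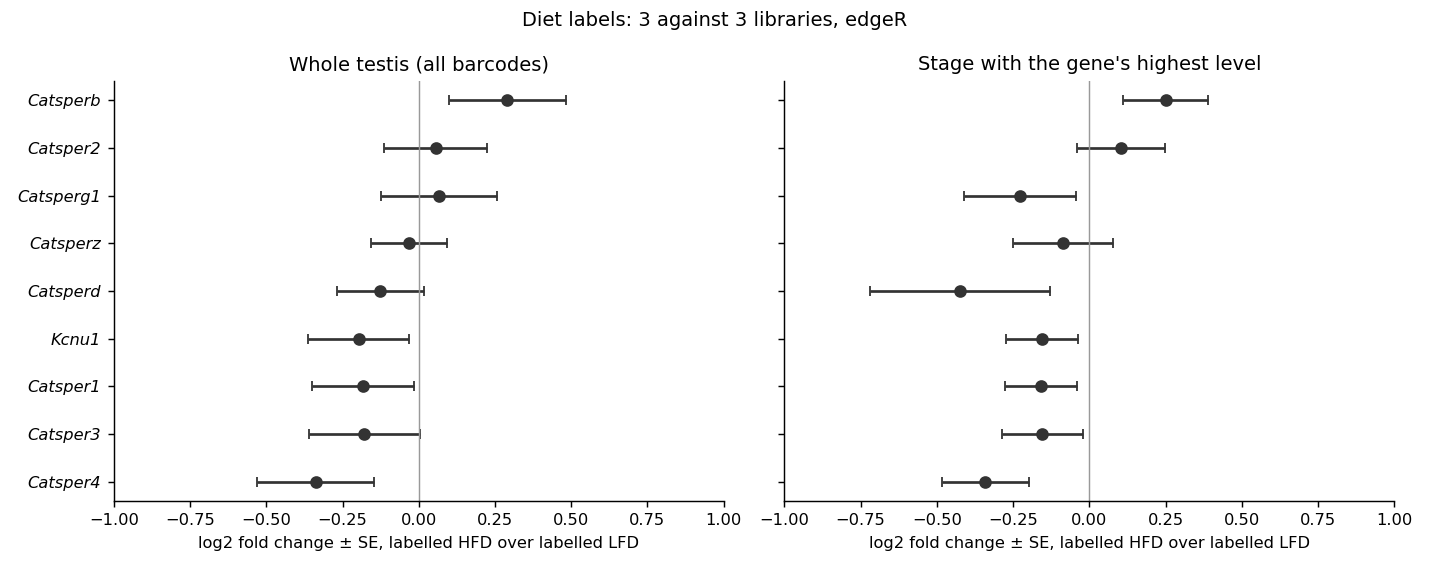
Log2 fold change ± SE of 9 genes (rows) between 3 libraries labelled HFD and 3 labelled LFD, in sums over all barcodes (left) and in the stage where each gene was highest (right). The changes in the whole testis run from -0.34 (Catsper4) to 0.29 (Catsperb), and no gene passed the test.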

How the data were processed

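UMI counts per gene and barcode, as deposited, were made by the authors with Cell Ranger 6.0.1 on mm10, per the submitters' processing notes; the kit version differs between the labels and the methods. They are not normalized. The 6 libraries held 39196921 to 95845514 UMIs, and intervals cover counting error only.

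The genes and lists were chosen with earlier results of these data known. Barcodes with at least 3000 UMIs were scored by the mean z of log(UMIs per 10000 + 1) over each marker list (z limited to 5) and took the highest-scoring stage at 0.5 or more, a rule set after seeing the data; 1180 staged barcodes lay within 0.1 of that limit and 2316 within 0.1 of a second stage. Doublets were kept, and an alternative left out 3356 (6.86%). Counts were summed per library and stage and tested with edgeR 4.0.16 (quasi-likelihood, TMM, filterByExpr, Benjamini-Hochberg, R 4.3.3), called at an adjusted p under 0.05. DESeq2 1.42.0 was an alternative. Stage comparisons used the library as a block and left out stage markers. Named genes were the 10 listed, the other sperm channel genes and the 2 most alike per gene. Gene positions are from GENCODE on GRCm38. Simulated counts used the fitted trend of the dispersion, and changed genes were drawn from those with a mean of at least 10 CPM. On these, the whole-testis diet comparison recovered 182 of 200 genes changed by 1 on the log2 scale. It made 12 false calls among 20470 genes. The step from early to later round spermatids recovered 200 of 200, with 15 false calls among 12862 genes. Smaller changes were not simulated. The replicate numbers were not taken as pairs across diets.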

Additional observations from a re-analysis of the deposited data

Results flagged for a closer look

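Levels far from the other 5 libraries of the same stage were found by Dixon's test at its 95% critical value, which flags about 1 in 20 groups by chance; 20 of 81 were flagged. HFD replicate 2 held 11 of them. In elongating spermatids it had 26.5 CPM of Catsper1, 67.0 of Catsper3, 73.2 of Catsper4, 21.2 of Catsperb and 1427 of Catsperz. In condensing spermatids it had 31.1 CPM of Catsper1, 47.1 of Catsper3, 88.1 of Catsper4, 36.9 of Catsperb and 16.5 of Kcnu1, and at the start of elongation 24.1 CPM of Catsperb. The same library had 749 CPM of the meiotic gene Hspa2 in elongating spermatids, against 99.7 to 295 CPM in the others.

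LFD replicate 2 was highest in early stages. It had 21.1 CPM of Catsper3, 24.2 of Catsper4 and 426 of Catsperz in spermatogonia, 50.7 of Catsperd and 511 of Catsperz in early prophase, and 9.46 of Catsper1, 13.8 of Catsper3 and 23.3 of Catsper4 in pachytene. LFD replicate 3 had 42.3 CPM of Catsper1 in early round spermatids. The source of these values was not tested.

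The 27667 barcodes below 3000 UMIs, used in no stage, also held UMIs of every listed gene: 1880 of Catsper1, 9893 of Catsper2, 3302 of Catsper3, 4804 of Catsper4, 2331 of Catsperb, 4414 of Catsperd, 1704 of Catsperg1, 79344 of Catsperz, 1391 of Kcnu1 and 9 of Hvcn1.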

How the results depend on the processing

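No listed gene was called between diets under any alternative tried. Over all genes, with 0 called in the main comparison, the replicate block called 24 in the whole testis, 22 in early prophase, 1 in early round and 1 in later round spermatids. Same-numbered libraries correlated at 0.487, 0.0311 and 0.262 in the whole testis and at 0.0417, 0.312 and 0.202 in later round spermatids. In the whole testis HFD replicate 2 was closest to LFD replicate 3 (0.300). The numbers were not taken as pairs, and these values do not settle whether they mark pairs. Without the filter on low counts 5 genes were called in spermatogonia, 3 in early prophase, 2 in late spermatocytes, 9 in early round, 38 in later round and 6 in condensing spermatids. Leaving out 1 library gave 0 to 2 calls in the whole testis (2 without HFD replicate 1) and 0 to 1 in condensing spermatids (1 without HFD replicate 2). From elongating to condensing spermatids 3120 genes were called, 877 with no library block and 1919 (without HFD replicate 1) to 4317 with 1 library left out, 2034 without LFD replicate 1. Of the listed genes 4 were called there, 2 with no filter, 1 with no library block and 1 to 5 with 1 library left out, and 4 to 8 at the step before it, where 5 were called. Diet changes on the log2 scale that turned sign with 1 library left out were small. In the whole testis Catsper2 ran from -0.102 (without HFD replicate 3) to 0.111, Catsperg1 ran from -0.0651 (without HFD replicate 2) to 0.168, and Catsperz ran from -0.148 to 0.00517 (without HFD replicate 2). In late spermatocytes Catsper2 ran from -0.0112 (without LFD replicate 2) to 0.191, and Catsperz from -0.255 to 0.00106 (without LFD replicate 1). With scaling by library size alone, chosen after seeing the data, Catsper4 fell by 0.22 from later round spermatids to the start of elongation. That scaling gave 3763 higher and 5888 lower genes into pachytene (4747 and 4487 with TMM), 3859 and 6260 into later round spermatids (4627 and 4080), 3436 and 8146 at the start of elongation (4625 and 5218) and 853 and 4507 into elongating spermatids (2836 and 3278). For the changes of listed genes between stages that were called in the main comparison, 560 values under the alternatives kept direction and side of the threshold. Another 39 kept direction only and 1 turned. Uncalled changes were not counted. Among these, Catsperd went from 0.00707 to -0.0948 into late spermatocytes under library size scaling, and from 0.314 to -0.0837 into elongating spermatids. The cause was not tested.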
